A study of Homo sapiens with 20 samples.

Results

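Of 18417 genes measured on arrays of MDA-MB-231 cells, 6 are described here because their log2 values were lower than Control in every drug treatment: TNFSF18, PLXDC2, KLHL4, CEP112, DPH6 and TCP11L2. They were chosen by the 6 comparisons with Control, from earlier results of the same arrays, so those differences describe the choice and were given no test. The choice also named the fall of KLHL4 with cisplatin and the level of TCP11L2 in the combination at 24 h, beside what the single drugs would add up to. In all, 86 genes (0.467% of those tested) were called lower in all 6 comparisons, and the 6 genes belong to them.

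MDA-MB-231 is an established human line of triple-negative breast cancer. The cells received 36 µM cisplatin (Cis), a platinum drug that crosslinks DNA, 10 µM ammonium tetrathiomolybdate (TM), a copper chelator, or both drugs together (Cis/TM), and total RNA was measured on Affymetrix Human Gene 1.0 ST arrays. There are 20 arrays in 7 groups: 3 of Control, which the labels describe as having had no treatment, 3 each of Cis and Cis/TM at both times and of TM at 24 h, and 2 of TM 12 h. The purpose of the design was to set gene expression under the combination beside that under each drug. The methods describe vehicle-treated cells harvested at both times, whereas the labels give the Control arrays no time, so the same 3 arrays stand for 12 h and 24 h. The methods describe 3 separately treated wells for each condition, and whether these came from separate experiments is not stated, so the p-values measure the spread between such wells. The array numbers in the labels run group by group with Control last, so array number and group cannot be told apart. What the numbers stand for is not stated.

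The values are on the log2 scale after robust multi-array averaging (RMA) by the authors, and a difference of 1 is a 2-fold change in signal. Array medians ran from 5.71 to 5.94. The Control arrays lay at the low end with 5.77, 5.76 and 5.71. Their SD over all genes was 2.01, 2.01 and 2.03, against 2.03 (Cis 12 h A) to 2.18 (Cis 24 h A) on the treated arrays. The part of this in the falls below Control was not tested, and refits under other scalings are given at the end. A gene was called where the adjusted p from limma was below 0.05 and the change exceeded 1.5-fold, which is 0.585 on the log2 scale. Probe sets respond unequally, so levels of different genes were not ranked against each other. VIM, CD44, LGALS1 and AXL, markers of mesenchymal-like cells, read at least 9.25 on every array, and ESR1, PGR and CDH1, low in triple-negative mesenchymal-like cells, at most 4.23. EPCAM and GATA3, also listed as low in this line, read 7.65 to 8.98 and 5.13 to 6.44. Of markers of other cells, the leukocyte genes PTPRC and CD3E stayed at or below 3.93 on all 20 arrays, PECAM1 of endothelium at or below 4.83, and COL1A1 of fibroblasts read 6.14 to 6.71.

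The 6 genes do not form a pathway. TNFSF18 and PLXDC2 act at the cell surface. TNFSF18 is the ligand of GITR, a costimulatory receptor of T cells encoded by TNFRSF18. PLXDC2 is a transmembrane protein with a plexin-like domain that has been described, with its relative PLXDC1, as a receptor of pigment epithelium-derived factor (SERPINF1). KLHL4 belongs to the kelch-like proteins, many of which bring substrates to ubiquitin ligases built on cullin 3. CEP112 is a coiled-coil protein of the centrosome. DPH6 is the ligase of the last step of diphthamide synthesis, a modification of the translation elongation factor EEF2 that diphtheria toxin attacks. TCP11L2 is a little-studied relative of the testis protein TCP11.

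The stretches of 250 bases before the transcription start are shown for 4 of them, taken from RefSeq (GRCh38.p14) and written 5′ to 3′ on the strand of the gene. DPH6 and PLXDC2 are shown because their profiles over the arrays were the most alike of any pair among the 6 (0.237 on the measure of likeness given further on), and KLHL4 and TCP11L2 because the choice singled them out. Capitals mark the motifs that were found. DPH6 lies on the minus strand at chr15:35546166-35546415, PLXDC2 on the plus strand at chr10:19816182-19816431, KLHL4 on the plus strand at chrX:87517552-87517801, and TCP11L2 on the plus strand at chr12:106302483-106302732.
DPH6: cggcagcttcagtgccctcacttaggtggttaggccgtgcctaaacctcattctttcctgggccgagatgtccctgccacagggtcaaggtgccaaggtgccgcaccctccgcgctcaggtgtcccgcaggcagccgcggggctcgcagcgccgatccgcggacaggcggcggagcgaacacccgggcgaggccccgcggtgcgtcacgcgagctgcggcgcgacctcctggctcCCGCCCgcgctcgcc
PLXDC2: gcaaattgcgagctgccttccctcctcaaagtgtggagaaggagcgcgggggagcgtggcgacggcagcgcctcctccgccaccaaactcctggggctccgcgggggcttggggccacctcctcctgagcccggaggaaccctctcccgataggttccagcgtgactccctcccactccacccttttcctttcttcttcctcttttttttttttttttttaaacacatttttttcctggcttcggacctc
KLHL4: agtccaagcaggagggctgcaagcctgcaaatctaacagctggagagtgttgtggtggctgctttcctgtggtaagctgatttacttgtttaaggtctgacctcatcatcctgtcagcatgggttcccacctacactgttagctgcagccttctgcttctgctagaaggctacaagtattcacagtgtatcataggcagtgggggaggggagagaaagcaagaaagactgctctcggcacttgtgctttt
TCP11L2: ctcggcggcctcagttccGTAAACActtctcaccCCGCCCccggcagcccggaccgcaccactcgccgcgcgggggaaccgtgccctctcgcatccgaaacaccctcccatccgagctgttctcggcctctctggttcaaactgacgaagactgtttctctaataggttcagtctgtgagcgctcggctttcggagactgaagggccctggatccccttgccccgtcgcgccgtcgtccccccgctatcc

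In windows from 250 bases before to 50 after the start, DPH6 held 38 CpG pairs and TCP11L2 held 30, PLXDC2 held 14, TNFSF18 held 3 and KLHL4 held 2. The median over all 35116 windows of the table was 14, and 24.5% of them held 3 or fewer. CEP112 has 3 such windows with 37, 35 and 1. The alike pair DPH6 and PLXDC2 thus differed in CpG count, as did the 6 genes as a whole. Both strands were searched for the TATA box (TATAAA, in 11.5% of all windows), the CCAAT box (CCAAT, 34.6%), the GC box (GGGCGG, 45.0%), the E-box (CACGTG, 7.26%), the AP-1 site (TGANTCA, 7.71%), the cAMP response element (TGACGTCA, 1.85%), the forkhead site (GTAAACA, 3.42%), the E2F site (TTTCCCGC, 1.63%), the metal response element (TGCGCNC, 20%, or TGCACNC, 12.1%) and the antioxidant response element (TGACNNNGC, 13.3%). None of these letter strings overlapped another in the 4 stretches shown. TCP11L2 held the forkhead letters 232 bases before the start and a GC box at 216 bases. DPH6 held a GC box 15 bases before the start and TGCGCNC 14 bases after it, outside the stretch shown. TNFSF18 held TGACNNNGC 20 bases before the start, and KLHL4 and PLXDC2 held none of the strings. GC boxes and TGCGCNC also occurred in CEP112 windows. No string was shared by all 6 genes, and a match of letters is not evidence of a bound factor.

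TNFSF18, the GITR ligand, read 5.18, 5.79 and 5.87 on Control arrays A, B and C. At 12 h it read 4.18, 3.88 and 4.06 in Cis, 4.90 and 4.46 in TM, and 3.98, 3.83 and 3.64 in Cis/TM. At 24 h the values were 4.19, 4.08 and 4.12 in Cis, 4.52, 4.10 and 4.52 in TM, and 4.42, 4.57 and 4.77 in Cis/TM. All 17 treated arrays lay below the lowest Control array, and the lowest mean was that of the combination at 12 h. In RNA from whole cultures, fewer cells with a transcript and less transcript per cell cannot be told apart, and this holds for every gene below. The group mean was 5.61 ± 0.38 (SD, n = 3) in Control and 3.81 ± 0.17 (SD, n = 3) in Cis/TM 12 h, a log2 difference of -1.80 (standard error 0.17, 3.48-fold lower). The smallest of its differences was -0.93 (standard error 0.19) in TM 12 h, on 2 arrays. By group mean Control stood first, then TM 12 h, Cis/TM 24 h and TM 24 h, followed by Cis 24 h, Cis 12 h and, last, Cis/TM 12 h, and each treated group overlapped the next one in that order. With a mean of 4.45 over the arrays TNFSF18 lies in the lowest 25% of genes, which ends at 4.51, and the deposited values give no measure of background for it.

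PLXDC2, the plexin domain protein, read 6.98, 6.88 and 7.0 in Control, the tightest Control values of the 6 genes. The 12 h arrays gave 5.43, 5.79 and 5.51 in Cis, 6.01 and 5.90 in TM, and 5.52, 5.81 and 5.70 in Cis/TM. The 24 h arrays gave 5.16, 4.94 and 5.06 in Cis, 5.70, 6.00 and 6.29 in TM, and 5.42, 5.34 and 5.52 in Cis/TM. Cis 24 h was lowest and overlapped no other group, TM stood highest among the treatments at both times, and no treated array reached Control. The difference from Control was -1.90 (standard error 0.13) in Cis 24 h and -1.53 (standard error 0.13) in Cis/TM 24 h. It was -1.38 in Cis 12 h and -1.28 in Cis/TM 12 h, and -1.0 and -0.96 under TM at 12 h and 24 h. In order of the means, TM 24 h and TM 12 h overlapped, then Cis/TM 12 h, Cis 12 h and Cis/TM 24 h overlapped one with the next, and Cis 24 h stood apart. Out of that order, TM 24 h (down to 5.70) also overlapped Cis/TM 12 h (up to 5.81) and Cis 12 h (up to 5.79).

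KLHL4, the kelch-like protein, read 8.62, 8.55 and 8.32 in Control. At 12 h the arrays of Cis gave 5.04, 5.58 and 5.52, those of TM 7.27 and 7.42, and those of Cis/TM 5.45, 5.33 and 5.64. By 24 h they gave 7.41, 7.10 and 7.31 in Cis, 7.04, 7.30 and 7.41 in TM, and 7.93, 7.49 and 7.71 in Cis/TM. The 6 arrays with cisplatin at 12 h formed a low group of their own, more than 1 unit below any other array, and the other 11 treated arrays lay between them and Control. The mean of 5.38 ± 0.29 (SD, n = 3) in Cis 12 h against 8.50 ± 0.15 (SD, n = 3) in Control was a difference of -3.11 (standard error 0.15), or 8.65-fold. Cis/TM 12 h differed by -3.02 (standard error 0.15), and the remaining 4 differences ran from -1.25 in TM 24 h to -0.79 in Cis/TM 24 h. KLHL4 had the largest fall of the 6 genes at 12 h of cisplatin, but at 24 h it was DPH6 that lay lowest beside Control. Cis/TM 24 h did not overlap TM 12 h, the next in order, while TM 12 h, Cis 24 h and TM 24 h overlapped one with the next, as did Cis/TM 12 h with Cis 12 h.

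CEP112, the centrosomal protein, read 5.82, 6.44 and 6.33 in Control. The 12 h values were 4.62, 4.72 and 4.84 in Cis, 4.97 and 4.76 in TM, and 4.90, 4.51 and 4.67 in Cis/TM. The 24 h values were 4.71, 4.78 and 5.09 in Cis, 4.65, 5.18 and 5.56 in TM, and 5.18, 4.89 and 5.17 in Cis/TM. Here the treatments gave nearly one level, with each group overlapping the next in order, and the highest treated array, TM 24 h C, still lay below Control. Its 6 differences spanned the narrowest range of the 6 genes, from -1.50 (standard error 0.19) in Cis/TM 12 h to -1.06 (standard error 0.19) in TM 24 h.

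DPH6, the diphthamide ligase, read 5.84, 6.00 and 6.73 in Control, the widest Control values of the 6 genes. The arrays at 12 h gave 4.30, 4.57 and 4.59 in Cis, 5.30 and 5.13 in TM, and 4.86, 4.78 and 5.03 in Cis/TM. Those at 24 h gave 4.06, 4.17 and 3.94 in Cis, 4.65, 5.32 and 5.12 in TM, and 4.71, 4.59 and 4.43 in Cis/TM. At each time the group mean was lowest with cisplatin alone, higher in the combination and highest under TM, and no treated array reached Control. Cis 24 h lay below Control by 2.13 on the log2 scale (difference -2.13, standard error 0.19, 4.38-fold) and Cis 12 h by a difference of -1.70. The combination gave -1.30 and -1.61 at 12 h and 24 h, and TM gave -0.98 and -1.16. In the order of means, TM 12 h, TM 24 h and Cis/TM 12 h overlapped one with the next, as did Cis/TM 24 h with Cis 12 h, while Cis/TM 12 h and Cis/TM 24 h did not overlap and Cis 24 h stood apart.

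TCP11L2 read 7.68, 6.91 and 7.60 in Control. Arrays at 12 h showed 5.56, 5.70 and 5.81 in Cis, 4.82 and 4.93 in TM, and 5.80, 5.56 and 5.62 in Cis/TM. At 24 h they showed 5.86, 5.84 and 5.75 in Cis, 4.39, 4.58 and 4.93 in TM, and 6.13, 6.22 and 6.07 in Cis/TM. It was the only one of the 6 genes with both TM groups below every other array, and the combination sat with cisplatin at 12 h and above it at 24 h. TM gave differences from Control of -2.52 (standard error 0.18) at 12 h and -2.77 (standard error 0.16, 6.81-fold) at 24 h. Cis gave -1.71 and -1.58, and Cis/TM gave -1.74 and -1.26. Below Cis/TM 24 h, which overlapped no other group, Cis 24 h, Cis 12 h and Cis/TM 12 h overlapped one with the next, and TM 12 h overlapped TM 24 h.

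**Figure D1:**
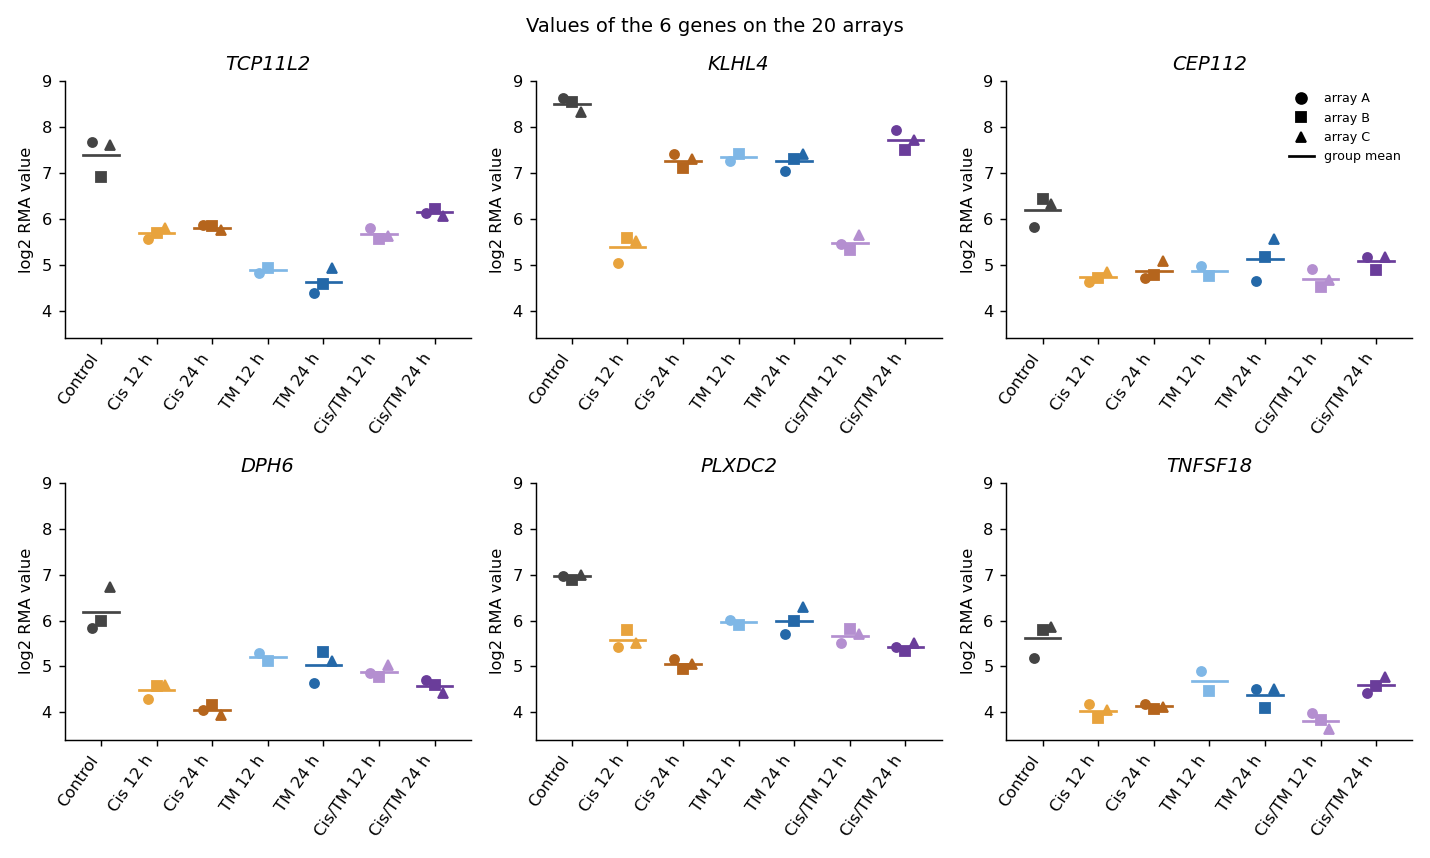
Log2 RMA value (vertical axis) of each of the 6 genes on the 20 arrays, by group (horizontal axis). Points are single arrays with their replicate letter by shape, and lines are group means; every treated array lies below the Control arrays, KLHL4 is lowest in the 2 cisplatin groups at 12 h (means 5.38 and 5.48), and TCP11L2 is lowest under TM (means 4.88 and 4.63).

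In these contrasts with Control the share of all genes called lower was 10.8% after 12 h of Cis and 4.9% after 24 h. It was 3.11% after 12 h of TM and 2.55% after 24 h, and under both drugs 8.55% at the earlier time and 2.48% at the later. The groups did not overlap in any of the 36 differences of the 6 genes, which follows from how they were picked. Ranked by the smallest of their 6 falls among the 86 genes, TCP11L2 was 2, CEP112 4, DPH6 5, PLXDC2 8, TNFSF18 10 and KLHL4 26. The sialyltransferase gene ST6GALNAC3 stood first with -1.78. At the edge of the 86 genes, VEGFA and SNORD115-34 were just inside with -0.59, and BCAS3 and MYO1D just outside with -0.58. Over all genes the median difference from Control ran from -0.046 to -0.002. The 6 genes were lower in all 6 comparisons whichever array was left out, which also goes back to how they were picked. When only the 2 groups of a contrast were fitted, DPH6 and TNFSF18 were no longer called lower in TM 12 h.

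**Figure D2:**
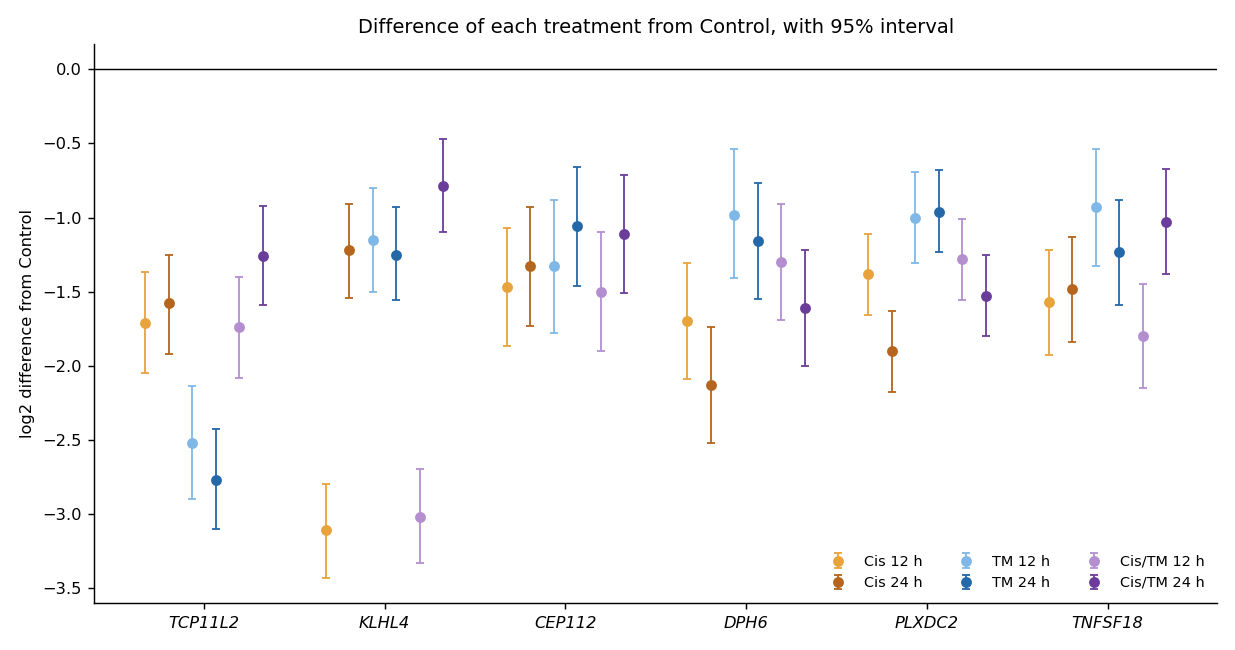
Difference of each treatment from Control (log2, vertical axis) for the 6 genes (horizontal axis), with 95% intervals of the limma fit. CEP112 spans -1.50 to -1.06 over the treatments and KLHL4 -3.11 to -0.79; the genes were picked on these differences, so the distance from 0 is a description.

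Differences between treated groups hold no Control array, and they are the ones that could be tested. For the 6 genes 59 such differences were tested over 12 comparisons, with p-values adjusted over all 18417 genes of a comparison, and 10 were called. Over all genes the share called ran from 0.0% to 17.2% per comparison, and it is given with each comparison below. TNFSF18 had 4 calls in 12 tests, TCP11L2 3 in 7, DPH6 2 in 12, PLXDC2 1 in 12, CEP112 0 in 12 and KLHL4 0 in 4. The 0 of KLHL4 rests on few tests, since its largest differences are among those left untested. A further 13 differences were left untested because the choice had used the fall of KLHL4 with cisplatin or the level of TCP11L2 in the combination at 24 h. The tests kept for TCP11L2 with Cis 24 h or TM 24 h, and for KLHL4 with Cis, still share arrays with that choice. The call of TCP11L2 between Cis 24 h and TM 24 h, among the 10, is thus not separate from it. In all 9 called differences between 2 groups, the arrays of the groups did not overlap, and the other call was a difference of time courses. Overlap was not counted over all genes. Leaving out an array of TM 12 h leaves that group with 1 array, which is then assumed to vary like the other groups.

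Cisplatin against TM separated the genes in both directions. At 12 h, 3 of 5 genes tested were called, where 17.2% of all genes were. At 24 h it was 3 of 5, against 8.55% of all genes, with TCP11L2, whose 24 h levels the choice had used, among the 3. TCP11L2 was higher with Cis than with TM, in all arrays at both times. The difference was 0.81 after 12 h (standard error 0.18, adjusted p = 0.00167), and after 24 h it was 1.18 (standard error 0.16, adjusted p = 2.9e-05). The choice of TCP11L2 had used its levels in both groups at 24 h, so the 24 h test is not separate from the choice. DPH6 was lower with Cis, by a difference of -0.72 after 12 h (standard error 0.21, adjusted p = 0.0127) that reached -0.97 after 24 h (standard error 0.19, adjusted p = 9.1e-04). Its call at 12 h was lost without Cis 12 h A (-0.63, adjusted p = 0.0544) and without TM 12 h A (-0.64, adjusted p = 0.122), while over all refits its adjusted p ran from 0.00172 to 0.122. PLXDC2 was lower with Cis at 24 h by a difference of -0.94 (standard error 0.13, adjusted p = 3.5e-05). At 12 h its difference of -0.38 (95% interval -0.69 to -0.07) had an adjusted p of 0.0624.

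TNFSF18 was lower with Cis than with TM at 12 h by a difference of -0.64 (standard error 0.19, adjusted p = 0.0145). That call rested on single arrays, since without Cis 12 h B the difference was -0.56 (adjusted p = 0.0551) and without TM 12 h A it was -0.42 (adjusted p = 0.267), in a range of adjusted p from 0.00378 to 0.267 over all refits. At 24 h its groups overlapped, with a difference of -0.25 (95% interval -0.60 to 0.11, adjusted p = 0.38). CEP112 gave -0.13 at 12 h (95% interval -0.58 to 0.31) and -0.27 at 24 h (95% interval -0.67 to 0.13), and was not called. KLHL4, whose fall with cisplatin was part of the choice, lay lower in Cis than in TM by a difference of -1.96 at 12 h and differed by 0.02 at 24 h, as a description.

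Between the combination and cisplatin alone at 12 h, the limma fit called 0 of 18417 genes (0.0%), with 1732 at an unadjusted p under 0.05, 0 to 1 called over the other settings and 0 to 5 when single arrays were left out. None of the 6 genes was called, and the differences ran from -0.23 for TNFSF18 (95% interval -0.58 to 0.13) to 0.40 for DPH6 (95% interval 0.01 to 0.79). At 24 h the combination lay above cisplatin for all 6 genes, by differences from 0.22 for CEP112 to 0.52 for DPH6, and the groups did not overlap for 5 of them. Over all genes the median difference was -0.009, and 3230 had an unadjusted p under 0.05. The share of all genes that lay above or did not overlap was not counted. Low values in both groups also helped to choose the genes, so these positions are a description. None of the 5 genes tested was called, with adjusted p from 0.116 for KLHL4 to 0.637 for CEP112, while 1.5% of all genes were. The tests of KLHL4 against Cis hold values that the choice had used, so they are not separate from it. TCP11L2 was among the 5 without overlap, with 0.33 (95% interval -0.01 to 0.67), given as a description.

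Against TM, the combination at 12 h was called for 2 of 5 genes tested, where 13.6% of all genes were. TNFSF18 differed by -0.87 (standard error 0.19, adjusted p = 0.00188) and TCP11L2 by 0.78 (standard error 0.18, adjusted p = 0.00301). TNFSF18 and TCP11L2 thus moved to opposite sides of TM. Without TM 12 h A, when 1 array stood for that group, the TNFSF18 call was lost (-0.65, adjusted p = 0.0735, range over all refits 3.6e-04 to 0.0735). The TCP11L2 call was kept in every refit, with an adjusted p no higher than 0.0445. KLHL4 lay below TM by a difference of -1.87, given as a description.

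At 24 h none of 4 genes tested was called between Cis/TM and TM, against 6.28% of all genes. PLXDC2 had a difference of -0.57 with an adjusted p of 0.00559, just under the fold minimum, and passed it without TM 24 h A (-0.72, adjusted p = 0.00103) or without Cis/TM 24 h C (-0.62, adjusted p = 0.0118), its only 2 refits that were called. DPH6 had -0.45 (adjusted p = 0.131) and reached the call without TM 24 h A alone (-0.64, adjusted p = 0.0352). That array held the lowest value of its group in 5 of the 6 genes, and its SD over all genes, 2.04, was the lowest of the TM arrays. For TCP11L2 the distance from TM, 1.51, belonged to the choice and was not tested. KLHL4 lay above TM by 0.46, likewise as a description.

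**Figure D3:**
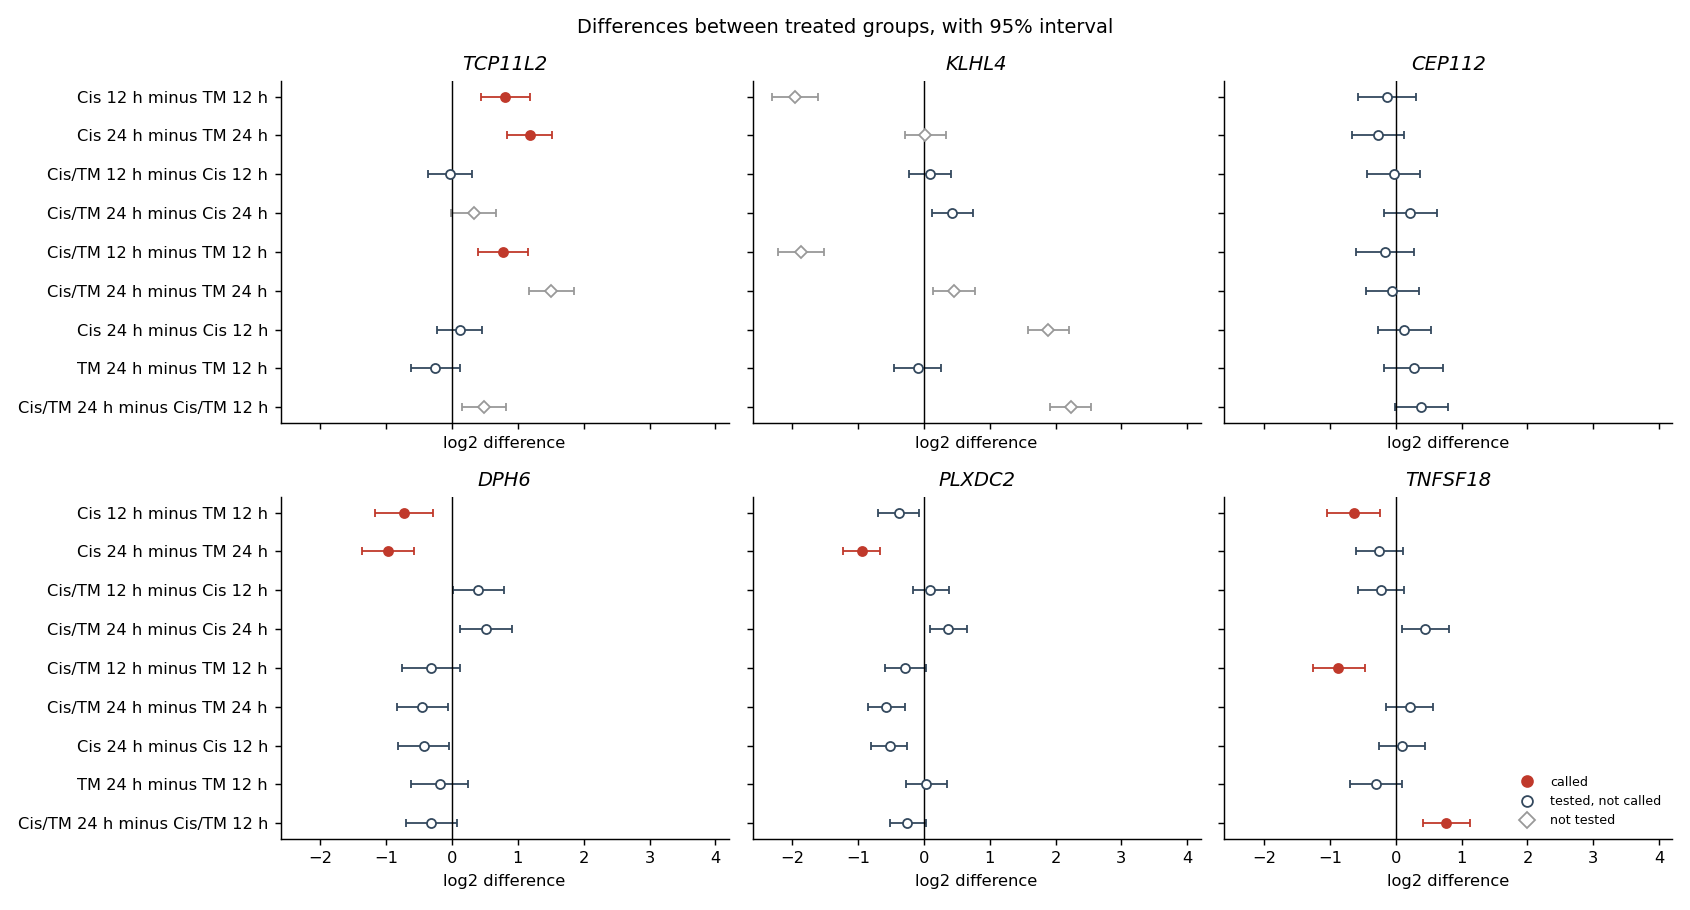
Log2 differences (horizontal axis) of the 6 genes in the 9 comparisons between 2 treated groups (vertical axis), with 95% intervals. Filled points were called, open circles were tested and not called, and grey diamonds were left untested. TCP11L2 lies right of 0 in the comparisons of Cis and Cis/TM with TM (0.78 to 1.51). No tested comparison was called for CEP112, nor for KLHL4, most of whose comparisons were left untested.

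From 12 h to 24 h, TNFSF18 rose in the combination. The change in Cis/TM was called for 1 of 4 genes tested, where 13.7% of all genes were, and for TNFSF18 it was 0.77 (standard error 0.17, adjusted p = 0.00162). In Cis none of 5 genes tested was called, against 10.6% of all genes. KLHL4 was higher at 24 h than at 12 h by 1.89 in Cis and 2.23 in Cis/TM, and TCP11L2 by 0.48 in Cis/TM. Their low or high values in those groups helped to choose them, so these changes were not tested. PLXDC2 gave -0.52 in Cis (adjusted p = 0.00629) and passed the fold minimum only without Cis 12 h A (-0.59, adjusted p = 0.00657). In TM none of the 6 genes was called, and over all genes the limma fit called 1 (0.00543%), SLC25A5-AS1, with 1068 at an unadjusted p under 0.05. The 6 differences in TM ran from -0.30 for TNFSF18 (95% interval -0.70 to 0.09) to 0.27 for CEP112 (95% interval -0.18 to 0.71).

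The time courses themselves were then compared, those with TM in comparisons added after seeing the data. The rise of TNFSF18 in Cis/TM exceeded its change in TM by 1.07 (standard error 0.25, adjusted p = 0.00886), 1 call of 4 tested where 9.38% of all genes were called. Without TM 12 h A, with 1 array left in that group, the value was 0.85 (adjusted p = 0.0906, range over all refits 0.00251 to 0.0906). Between Cis and TM none of 5 genes was called, against 9.9% of all genes. PLXDC2 came nearest with -0.56 (adjusted p = 0.0729) and was called without TM 24 h A (-0.71, adjusted p = 0.0182). Between Cis/TM and Cis none of 5 was called, against 0.0434% of all genes. TNFSF18 gave 0.68 there (95% interval 0.18 to 1.18, adjusted p = 0.292) and KLHL4 0.34 (95% interval -0.10 to 0.78, adjusted p = 0.568). The differences of KLHL4 between Cis and TM (1.98) and between Cis/TM and TM (2.32), and those of TCP11L2 between Cis/TM and Cis (0.36) or TM (0.73) were not tested.

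The combination was also set beside the sum of the log2 differences of both drugs. That sum would place TCP11L2 at 3.17 at 12 h and 3.05 at 24 h, whereas the measured means were 5.66 and 6.14. The interaction, the measured level minus that sum, was 2.49 (standard error 0.24) and 3.10 (standard error 0.23), the largest of the 6 genes at both times. For the other 5 genes it ran from 0.71 (TNFSF18) to 1.38 (DPH6) at 12 h and from 1.29 (CEP112) to 1.69 (TNFSF18) at 24 h. It was above 0 in all 12 values. Falls of like size under each drug and under both give such a sign, so the choice of the genes favours it. Medians over all genes were 0.019 and 0.003, but these are no matched background for genes picked on falls. The values hold the Control arrays and the falls that chose the genes, so they have no test. Of the 12 sums, 8 lay between 2.90 and 3.80, while the means of all genes had their 1st percentile at 2.91 and their 5th at 3.31. The sums of KLHL4 (4.23 and 6.03) and PLXDC2 (4.57 and 4.09) lay higher, with interactions of 1.10 to 1.68. The part of low sums in the interactions was not tested.

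A plainer comparison sets Cis/TM beside the lower of the 2 single drugs. TCP11L2 lay above it by 0.78 at 12 h and 1.51 at 24 h, the lower drug being TM. At 12 h the other 5 genes lay from 0.23 below (TNFSF18, difference -0.23) to 0.40 above (DPH6), and at 24 h from 0.22 (CEP112) to 0.52 (DPH6) above. At 24 h the combination was thus above the lower single drug for each of the 6 genes, and for TCP11L2, KLHL4 and TNFSF18 its mean was above that of both. The lower drug is a reference picked for being low, and the level of TCP11L2 at 24 h was part of the choice. How many of all genes lay above their lower drug was not counted, so the 6 are a description.

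**Figure D4:**
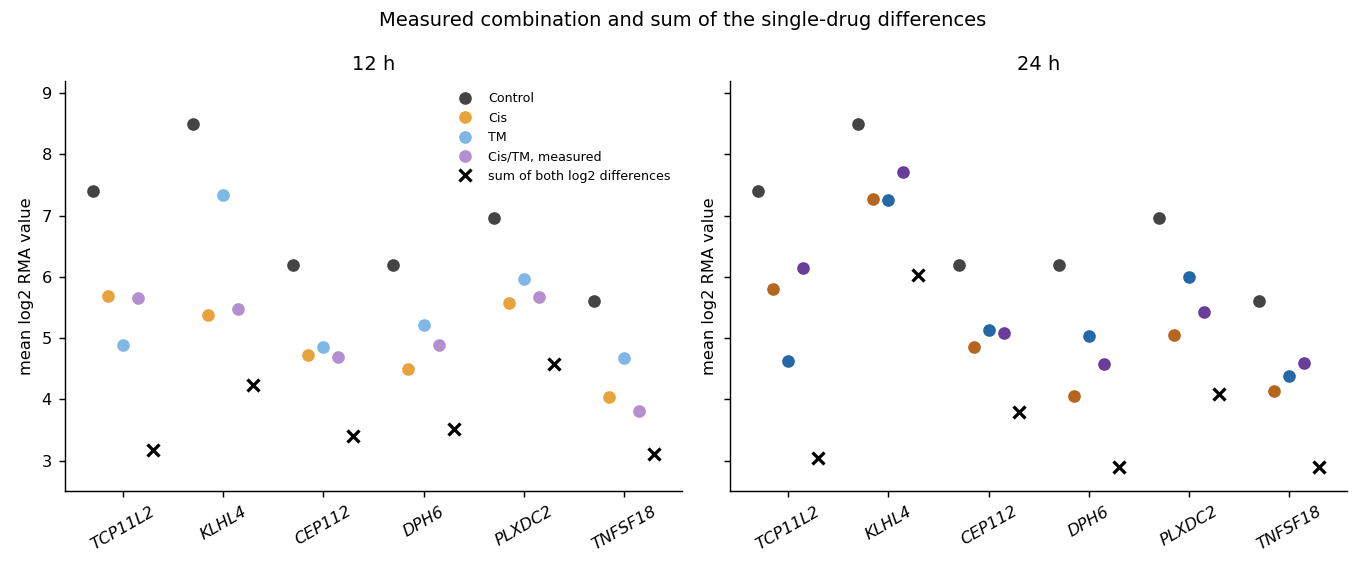
Mean log2 RMA value (vertical axis) of the 6 genes in Control, under each drug and under both, at 12 h (left) and 24 h (right). Crosses mark where the sum of both single-drug differences would lie. The measured combination is above the cross in all 12 cases, which the choice of the genes favours, and most for TCP11L2 (by 2.49 and 3.10).

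Relatives and partners of the 6 genes were listed from general knowledge, and none of them was called lower in all 6 comparisons. The share of all genes called higher than Control was 14.8% after 12 h of Cis and 11.5% after 24 h. Under TM it was 8.99% and then 5.16%, and under both drugs 15.2% and then 4.54%. Of 14 other ligands of the tumour necrosis factor family, 0 or 1 was called lower in any comparison and 0 to 2 higher, with list medians from -0.22 to -0.07. With arrays centred on their medians 2 were called lower in TM 12 h. TNFSF15, a ligand of the death receptor DR3, rose by 2.29 in Cis 12 h and 2.13 in Cis/TM 12 h, and read -0.16 to -0.08 in the other groups. TNFSF9, the ligand of the costimulatory receptor 4-1BB, rose by 0.97 and 0.77 in the same groups, though the second call was lost under quantile normalization and with the trend with level removed. The death ligand TNFSF10 rose by 0.94 in Cis 24 h. TNFRSF18, the receptor of the TNFSF18 product, was not called in any comparison (-0.10 to 0.28).

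For PLXDC2, its relative PLXDC1 (-0.09 to 0.24) and the ligand SERPINF1 (-0.05 to 0.25) were not called in any comparison. Of 9 plexins, receptors of semaphorins, 0 or 1 was called in either direction in each comparison. PLXNA2 was the one called lower, by differences of -1.37 and -1.34 under Cis at 12 h and 24 h, and of -1.41 and -1.13 under Cis/TM. Under TM it read 0.08 and -0.19, so it was called in the groups with cisplatin and not with TM alone, a contrast not tested here. PLXNA3 was called higher in Cis/TM 12 h (0.72), while its call in Cis 12 h and those of PLXNB2 and PLXNA1 as higher in 1 comparison each were lost under at least 2 of the 3 other scalings.

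Among 39 other kelch-like genes, 0 to 2 were called lower and 1 to 6 higher per comparison, with medians from -0.04 to 0.03. The balance hung on the scaling. In Cis 12 h the 2 lower and 4 higher became 6 and 2 with arrays centred on their medians, 3 and 2 under quantile normalization, and 4 and 1 with the trend with level removed. In Cis 24 h the 1 lower and 3 higher became 1 and 0 under both quantile normalization and removal of the trend, and 2 and 2 with centring. In Cis/TM 12 h the 2 lower and 6 higher became 4 and 4 with centring and 2 and 3 under each of the other scalings, while in TM 12 h the 1 lower became 3 with centring and 2 under the others. KLHL18 was called higher in 5 comparisons, by up to 1.22 in TM 12 h, and its calls in Cis 12 h and Cis 24 h were lost with the trend with level removed. KLHL29 was called lower under Cis at both times (-0.80 and -0.66) and in Cis/TM 12 h (-1.02). KLHL5 was called lower at 12 h under Cis (-1.11) and under both drugs (-0.81). IPP was called higher in Cis 24 h (0.81) and in Cis/TM at 12 h and 24 h (0.63 and 0.80). Only the last of these calls was kept under all 3 other scalings. Of the ligase core, CUL3 was called lower in Cis 12 h (-0.72). RBX1, the RING subunit, was called higher in 3 comparisons by 0.59 to 0.63, calls that all 3 other scalings took below the fold minimum in at least 2 of them. KEAP1, the adaptor that targets NRF2, read 0.17 to 0.61, and its 2 calls as higher were lost under each of the 3 other scalings.

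Of the diphthamide pathway beside DPH6, 6 genes were measured and none was called lower. DPH2, part of the enzyme of the first step, rose in 4 comparisons by 0.65 to 1.21. EEF2, the protein that carries diphthamide, rose in 5 comparisons by 0.77 to 1.0 and read 0.49 in Cis/TM 24 h. The call of DPH2 in TM 24 h was lost with arrays centred on their medians and with the trend with level removed.

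Of 32 other centrosomal CEP genes, 11 were called lower in Cis 12 h (10.8% of all genes were) and 5 in Cis/TM 12 h, but 0 at the later time in both. TM had 1 such call after 12 h and 3 after 24 h. Called higher were 2 genes in Cis and 4 in Cis/TM at 12 h, and 6 and 5 at 24 h. The list had a median of -0.32 after 12 h of Cis, and of 0.27 after 24 h of both drugs, with the same signs under all scalings. In Cis/TM 12 h the counts of 5 lower and 4 higher became 11 and 2 with the trend with level removed and 10 and 2 under quantile normalization. In Cis 24 h the 0 lower and 6 higher became 2 and 3 with the trend removed, 2 and 4 under quantile normalization and 1 and 5 with centring, and the list median of 0.25 fell to 0.04 with the trend removed. In Cis/TM 24 h the 5 higher became 2 under quantile normalization and with the trend removed, with 0 lower throughout. In TM 12 h the 1 lower became 2 with centring and 3 under the others. CEP70, which organises centrosomal microtubules, was called lower at 12 h under Cis (-0.97) and both drugs (-0.71), and under TM at both times (-0.74 and -0.71). CEP15 was called higher in the 4 groups with cisplatin, by 0.76 to 1.03. CEP19 was called lower in TM 24 h (-1.11) but higher in Cis 24 h (0.82) and Cis/TM 24 h (0.73), and both calls as higher were lost under quantile normalization and with the trend removed. CEP76 was called higher in Cis 24 h (0.89) and in Cis/TM at 12 h and 24 h (0.70 and 0.63), of which the 2 in Cis/TM were lost under the same 2 scalings. The TCP11 family has 2 other measured genes, of which TCP11L1 was called higher once, in Cis 24 h (0.69), a call lost under quantile normalization and with the trend with level removed.

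The nearest measured genes on each side were read from the RefSeq gene table (GRCh38.p14). For KLHL4 (DACH2 and RPSAP15) and CEP112 (AXIN2 and APOH), no neighbour was called in any of the 6 comparisons. Next to TCP11L2, POLR3B, a subunit of RNA polymerase III, was called lower under Cis at both times (-1.46 and -0.64) and in Cis/TM 12 h (-1.11), but it read 0.00 and 0.05 under TM, where TCP11L2 lay lowest. Next to DPH6, CDIN1 was likewise called lower under Cis (-1.12 and -0.71) and in Cis/TM 12 h (-1.03), and read 0.06 and 0.08 under TM. CKAP4 and ZNF770, on the other sides of TCP11L2 and DPH6, were not called.

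The neighbours of TNFSF18 belong to its own family. TNFSF4, the ligand of the costimulatory receptor OX40, was called lower under Cis at both times (-0.67 and -0.70), under both drugs at 12 h (-0.71) and under TM at 24 h (-0.61), and its other values were -0.52 (TM 12 h) and -0.46 (Cis/TM 24 h). All 4 of these calls were lost under quantile normalization and with the trend with level removed, where the differences were -0.47 to -0.37. TNFSF4 also read low on these arrays, with group means of 3.81 in Control and 3.09 to 3.35 under treatment. The 5th percentile of gene means is 3.31. FASLG on the other side read -0.19 to -0.02 and was not called. By PLXDC2, the actin-binding NEBL lay below Control in all 6 comparisons by differences of -0.65 to -0.52, with adjusted p from 1.2e-05 to 4.8e-04. It passed the fold minimum in Cis 12 h (-0.62) and Cis 24 h (-0.65). Both calls were lost with the trend with level removed, the second also under quantile normalization, while centring of arrays on their medians added calls in TM 12 h, TM 24 h and Cis/TM 12 h. CACNB2, on the other side of PLXDC2, was not called.

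**Figure D5:**
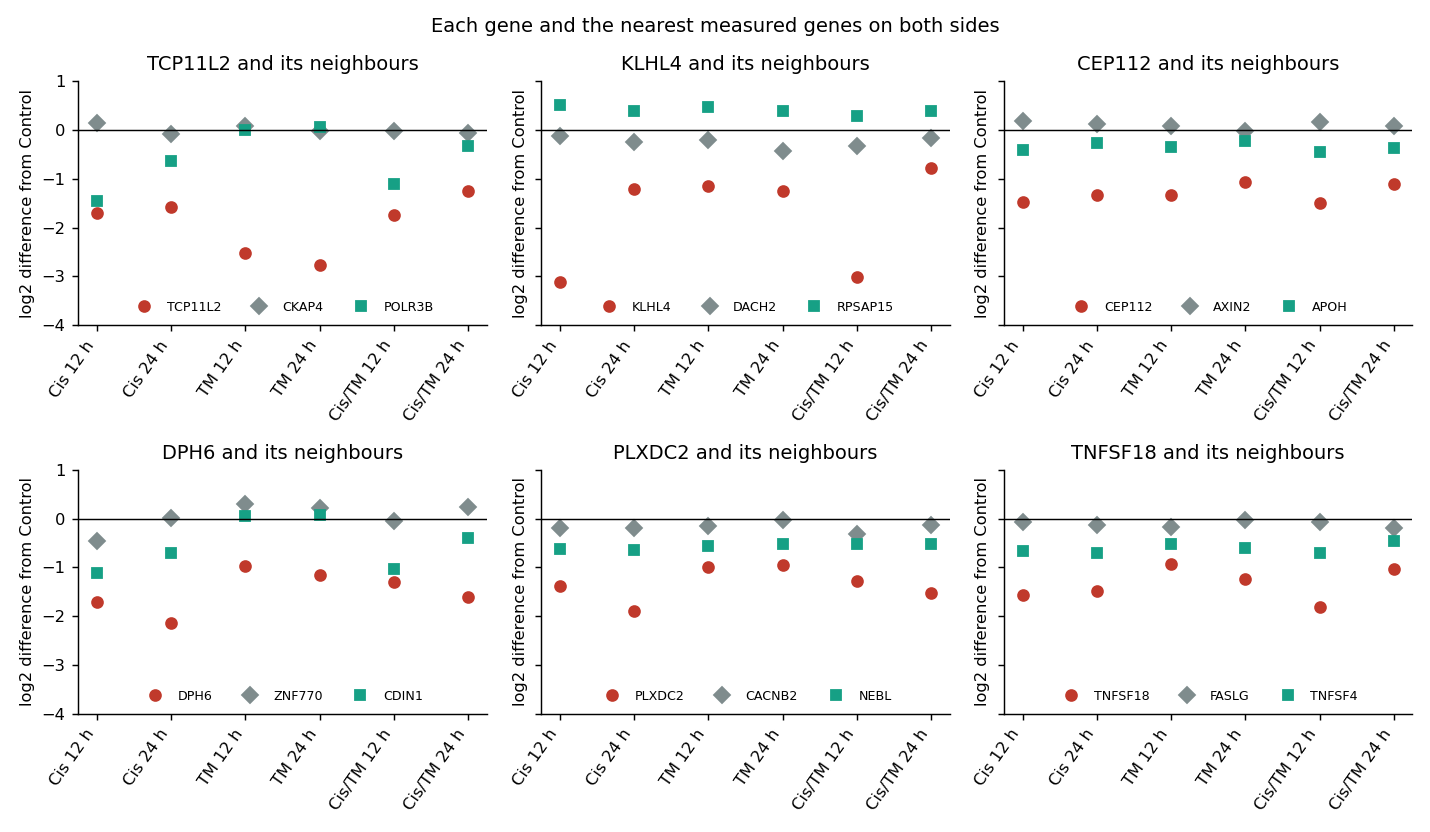
Difference from Control (log2, vertical axis) in the 6 treatments (horizontal axis) of each of the 6 genes and of the nearest measured gene on either side in the RefSeq gene table. POLR3B and CDIN1 lie below 0 in the cisplatin groups and near 0 under TM (0.00 to 0.08), whereas TCP11L2 and DPH6 lie below 0 in every group.

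Gene lengths set 4 of the 6 genes well above the usual span. From the first to the last base of the gene in the same table, CEP112 spans 557 kb, PLXDC2 473 kb, DPH6 401 kb, KLHL4 152 kb, TCP11L2 49.1 kb and TNFSF18 11.7 kb. The median over all genes measured was 24.5 kb, so TNFSF18 was shorter than that and the others longer. The 80 further genes called lower in all 6 comparisons had a median of 72.0 kb, and the 281 called higher in all 6 had 11.3 kb. Span was not used in choosing the 6 genes, and its part in the result was not tested.

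Likeness of profiles was measured as the root mean square difference between 2 genes over the 20 arrays, after each gene was centred on its own mean, where smaller is more alike. The nearest gene to DPH6 was PLXDC2, at 0.237 log2 units, against a root mean square spread of 0.67 for DPH6 itself. PLXDC2 in turn had NBEA (0.226), BCAS3 (0.234), PHKB (0.235) and then DPH6. CEP112 had FANK1 (0.199), SPRR2A, MIR221, PRG4 and SCG5, each of which was lower in all 6 comparisons. TNFSF18 had INVS (0.28), NBEA, ZNF730, MIR221 and OR2M3, again among the 86 genes.

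The measure grows with the spread of a gene itself. Relative to that spread, the distance to the nearest gene was smallest for KLHL4 (0.295) and largest for TCP11L2 (0.487). For TCP11L2 the nearest was the sialyltransferase gene ST8SIA4 (0.415), followed by C5, SPA17, DDIT4 and CYP4V2, and of these ST8SIA4 was called lower in all 6 comparisons. All 5 lay further below Control under TM than under Cis at 24 h, such as DDIT4 with -1.26 in TM 24 h and -0.59 in Cis 24 h. For KLHL4 the nearest was the growth factor gene NRG1 (0.324), then CDK19, SENP7, BAZ2B and DENND1B. Each lay over 2 units below Control in Cis 12 h (NRG1 with -2.79, DENND1B with -2.51) and less at 24 h, but none was called lower in every treatment. In its TM groups KLHL4 read -1.15 and -1.25, where the 5 genes read -0.73 to -0.21 at 12 h and -0.52 to -0.16 at 24 h. Of these, SENP7 (-0.73) and CDK19 (-0.60) were called lower in TM 12 h, and none was in TM 24 h. These likenesses are descriptions over arrays that share the same 3 Control arrays.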

How the data were processed

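Total RNA of MDA-MB-231 cells was measured on 20 Affymetrix Human Gene 1.0 ST arrays. The authors corrected, normalized and summarized the probe intensities by RMA with the affy package, per the study's methods, and their deposited log2 values were used as given. RMA shrinks differences at low signal, the deposited values carry no detection call, and the number of arrays limits the precision. The genome build behind the probe annotation is not given in the sources used here. RNA isolation is given as RNeasy in the methods and as Trizol in the labels.

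Groups and replicate letters came from the sample labels. Of 33297 transcript clusters, 19460 had 1 gene symbol in the platform annotation, 1754 had several and 12083 had none. Each of 18417 genes was represented by the single-symbol cluster with the highest mean over the arrays, and each of the 6 genes has 1 cluster. No symbol needed updating (0 changed through Entrez IDs).

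One limma model (limma 3.58.1, R 4.3.3) with 7 groups was fitted to all 20 arrays, with 13 residual degrees of freedom, eBayes moderation and Benjamini-Hochberg adjustment over the genes of each contrast, and its recovery of known changes was tested on simulated data. Calls needed an adjusted p below 0.05 with a change of more than 1.5-fold. Tables and figures were made with Python 3.11.15, pandas 2.3.3 and matplotlib 3.10.9. The 6 genes, the gene lists and the contrasts were chosen with earlier results of these data known. The 2 differences of time courses that involve TM were added after seeing the data, and so was the decision to leave 9 further differences of KLHL4 and TCP11L2 untested. Genes of a list were named if they were among its 4 called in most comparisons, or for their role (CUL3, KEAP1 and KLHL5 among the kelch-like genes). Alternatives were centring of arrays on their medians, quantile normalization, removal of the trend of differences with level (lowess), omission of the lowest 25% of genes, the mean of all clusters of a gene, fits of single contrasts, eBayes with trend and robust settings, a replicate block, and each array left out in turn. Replicate letters did not pair the arrays: residuals of same-letter arrays had a median correlation of 0.01 over 57 pairs (-0.42 to 0.61).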

Additional observations from a re-analysis of the deposited data

Results flagged for a closer look

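The change of TNFSF18 from 12 h to 24 h differed between Cis/TM and TM by a test of that difference, in a comparison added after seeing the data. The time course of Cis/TM exceeded that of TM by 1.07 (standard error 0.25, adjusted p = 0.00886), with 0.77 in Cis/TM and -0.30 in TM. TNFSF18, with a mean of 4.45 over the arrays, lies in the lowest 25% of genes. It has no refit with those genes left out. TM 12 h has 2 arrays. Without TM 12 h A, when the remaining array is assumed to vary like the other groups, the difference was 0.85 with an adjusted p of 0.0906.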

How the results depend on the processing

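Of the 276 refits of the 10 called differences between treated groups, 270 kept the call and its direction, 6 lost the call and none turned. The 6 losses concern DPH6 and TNFSF18, all when a single array at 12 h was left out, and 4 of them when TM 12 h was left with 1 array. The number of calls among the 6 genes was 10 with the replicate block and under the other alternatives, except 6 with the lowest 25% of genes left out, where TNFSF18 is not fitted. It ran from 6, without TM 12 h A, to 13, without TM 24 h A, when single arrays were left out. All 6 genes met the call as lower in every comparison with Control, also with the replicate block and whichever array was left out. With the lowest 25% left out it was 5 of them, since TNFSF18 is not fitted there. When only the groups of a contrast were fitted it was 4, since DPH6 and TNFSF18 missed the call in TM 12 h. The 36 differences from Control and the 12 interactions kept their sign in all 1002 and 334 refits. The genes were picked on these comparisons in the same arrays, so these refits are a description and no separate support. Over the gene lists and neighbours, calls lower than Control numbered 44 and became 67 with arrays centred on their medians. Calls higher numbered 55 and became 32 under quantile normalization and 29 with the trend with level removed. With the replicate block they were 47 and 55. The shares of all genes called hang on single arrays in 4 comparisons: without Cis 24 h A, 44 genes in place of 277 parted Cis/TM 24 h from Cis 24 h. Without TM 12 h A, 1047 in place of 1824 differed in time course between Cis and TM, and 1020 in place of 1728 between Cis/TM and TM. Between Cis/TM and Cis, 8 genes differed in time course, from 2 to 24 when single arrays were left out and from 1 to 38 under the other alternatives.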
